A study of Homo sapiens with 15 samples.

Results

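The genes described here are 43 genes of mitosis, chosen by name and without the kinesin motor genes, among the 18858 genes of the deposited RNA-sequencing table of MDA-MB-231 cells. All 43 had a row and all 43 were tested. CENPE, which was kept among them, encodes a centromere-associated protein that is itself a kinesin motor. MDA-MB-231 is an established human breast adenocarcinoma line. The cells were untransfected (Control), or were transfected for 48 h with a pool of non-targeting siRNA (siControl), with a pool against YAP (siYAP), with a pool against TAZ (siTAZ) or with both pools (siYAP+TAZ), and the knockdown cells were then seeded on gelatin for 5 to 6 h before RNA extraction. Each of the 5 groups held 3 libraries, numbered 16, 21 and 26 for Control, 17, 22 and 27 for siControl, 18, 23 and 28 for siYAP, 19, 24 and 29 for siTAZ and 20, 25 and 30 for siYAP+TAZ, and values are given in that order below. The study gives the same final concentration for each siRNA. If each pool kept it in the mixture, the co-knockdown cells received more siRNA in total than the other groups. Whether siControl was matched to that total is not stated.

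Mitosis is driven by a set of genes that is transcribed in a wave late in the cell cycle. CDK1 with its B-type cyclins starts entry, the centromere and kinetochore attach chromosomes to spindle fibres, the spindle checkpoint holds the cell until every chromosome is attached, and the anaphase-promoting complex with CDC20 then releases the sister chromatids. Transcription of these genes in the late wave runs through the MuvB complex with B-MYB (MYBL2) and through FOXM1, and their promoters often carry a cell cycle homology region (CHR) with CCAAT boxes upstream of it. YAP and TAZ (WWTR1) are co-activators of the Hippo pathway, which bind DNA through TEAD factors and are known for promoting proliferation in many epithelial and tumour cells.

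Total counts per library ranged from 18696737 to 30107312 with a median of 22902846, and the 43 genes took 0.657% to 0.803% of them. VIM and CD44, which mark the mesenchymal-like state of the line, lay at 24540.3 to 33934 and 19211 to 26317 normalized counts, with no group set apart from the rest. AXL, a further marker of that state, lay at 25087 to 26315 in siYAP+TAZ and at 35803 to 38270.1 in siControl, with no overlap. CAV1, another one, lay at 12973 to 13444 in siYAP+TAZ and at 12550 to 15205 in siTAZ, all below the siControl libraries at 15890.5 to 18515, whereas siYAP at 14432 to 16325 overlapped them. The part of AXL and CAV1 in the results below was not tested. EPCAM lay at 244 to 407 and the hormone receptor gene PGR at 8.3 or less. The leukocyte gene PTPRC did not pass 5.1. Of 3 luminal epithelial genes, FOXA1 did not pass 5.1, GATA3 lay at 424 to 680 and KRT19 moved with the groups. The summed level of the 3 was 6392 to 6712 in siControl, 6028 to 7877 in Control, 8395 to 8768 in siYAP, 7298 to 8819 in siTAZ and 8756 to 12053 in siYAP+TAZ, nearly all of it from KRT19, and its part in the results below was not tested. YAP1 was at 23.4%, 64.0% and 17.6% of the siControl mean in the siYAP libraries and at 51.8%, 51.0% and 41.5% in the siYAP+TAZ libraries. WWTR1 was at 45.8%, 14.1% and 28.8% in the siTAZ libraries and at 62.7%, 62.1% and 71.0% in the siYAP+TAZ libraries. Each target was less depleted in every co-knockdown library than in the libraries of its single knockdown, except that siYAP library 23 kept the most YAP1 of these 6.

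Promoter letters are shown first for the mitosis genes at the ends of the co-knockdown response. MAD2L1, CDC20 and CDCA8 had the most negative fold changes in siYAP+TAZ among members with a promoter entry, and CDC25B the highest. The 250 bases before the RefSeq start (GRCh38.p14) are printed 5′ to 3′ on the strand of the gene, with motif matches on either strand in capitals. The CHR was searched as TTTGAA and as its variant TTCGAA, the CCAAT box as CCAAT and the TEAD core as GGAATG. E2F sites were read as TTGGCGC, as the related TTCCCGC and as a further form, TTCGCGC. MAD2L1 lies on the minus strand at chr4:120066849-120067098, where 10 bases lie in its own first exon and 195 in an exon of the divergent transcript MAD2L1-DT in GENCODE. CDC20 lies on the plus strand at chr1:43358731-43358980, outside annotated genes. CDCA8 lies on the plus strand at chr1:37692266-37692515, with 35 bases in its own exons. CDC25B lies on the plus strand at chr20:3796060-3796309, where 231 bases fall in introns of longer transcripts of the gene and 19 in exons, this being the entry nearest to the canonical start of the 4 listed.
MAD2L1: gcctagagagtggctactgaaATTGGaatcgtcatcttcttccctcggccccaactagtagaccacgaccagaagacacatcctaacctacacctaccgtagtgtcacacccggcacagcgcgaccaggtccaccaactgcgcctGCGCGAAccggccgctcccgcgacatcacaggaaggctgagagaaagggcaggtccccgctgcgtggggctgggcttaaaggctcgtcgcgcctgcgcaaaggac
CDC20: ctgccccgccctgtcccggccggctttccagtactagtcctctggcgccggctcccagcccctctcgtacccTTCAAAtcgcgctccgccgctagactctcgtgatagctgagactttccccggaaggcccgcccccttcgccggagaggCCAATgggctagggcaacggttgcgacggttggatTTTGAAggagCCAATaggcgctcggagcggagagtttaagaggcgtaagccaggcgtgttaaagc
CDCA8: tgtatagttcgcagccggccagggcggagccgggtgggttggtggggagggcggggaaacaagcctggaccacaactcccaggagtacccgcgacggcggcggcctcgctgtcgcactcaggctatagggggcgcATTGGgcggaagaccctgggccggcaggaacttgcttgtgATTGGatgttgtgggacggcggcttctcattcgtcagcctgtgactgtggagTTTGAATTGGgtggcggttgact
CDC25B: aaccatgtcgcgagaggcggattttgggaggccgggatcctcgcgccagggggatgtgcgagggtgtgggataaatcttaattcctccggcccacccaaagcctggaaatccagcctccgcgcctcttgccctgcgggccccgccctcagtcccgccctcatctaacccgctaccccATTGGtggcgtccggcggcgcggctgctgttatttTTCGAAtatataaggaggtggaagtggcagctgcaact

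CDC20 carried a CHR at positions -65 to -60 and a CCAAT box on either side of it, at -100 to -96 and -55 to -51, with a further CHR match on the other strand at -178 to -173. CDCA8 carried a CHR at -23 to -18, with CCAAT boxes on the other strand at -115 to -111, -75 to -71 and -18 to -14, the last sharing a base with the CHR. In MAD2L1 the CHR match lay after the start, at 25 to 30, and is not in the printed stretch, which holds a CCAAT box at -229 to -225 and an E2F match at -105 to -99. CDC25B, whose log2 fold change in the co-knockdown was positive, had the same kind of letters, with a CHR at -38 to -33 and a CCAAT box at -73 to -69. RefSeq entries of 300 bases (250 before and 50 after the start) were matched for 36 of the 43 members and for 11856 genes of the whole table. BIRC5, TPX2, FOXM1, TTK, BUB3, AURKA and UBE2C had no entry. CHR letters were in 28 of the 36, or 77.8%, against 10.9% of all promoters, and CCAAT boxes in 75%, against 36.3%. Both were in 58.3%, against 4.7%. E2F letters were in 25% of members and 17.3% of all promoters, and the TEAD core in 11.1% of members and 10.7% of all promoters. The other mitotic lists carried these letters as well: of 12 promoters of mitotic kinesins 83.3% held the CHR, 83.3% a CCAAT box and 75% both, and of 67 promoters of other mitosis genes 49.3% held the CHR, 59.7% a CCAAT box and 28.4% both. Among genes of DNA replication and S phase the shares were turned round, with CHR letters in 6.25% and E2F letters in 75% of 32 promoters. Within the list, the 28 members with a CHR match had a median log2 fold change of -0.22 in siYAP+TAZ against siControl, and the 8 without a match -0.25. Lacking the searched letters does not show that the element is absent. The part of the CHR in these values was not tested. These are matches of letters, and no binding was measured.

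**Figure D1:**
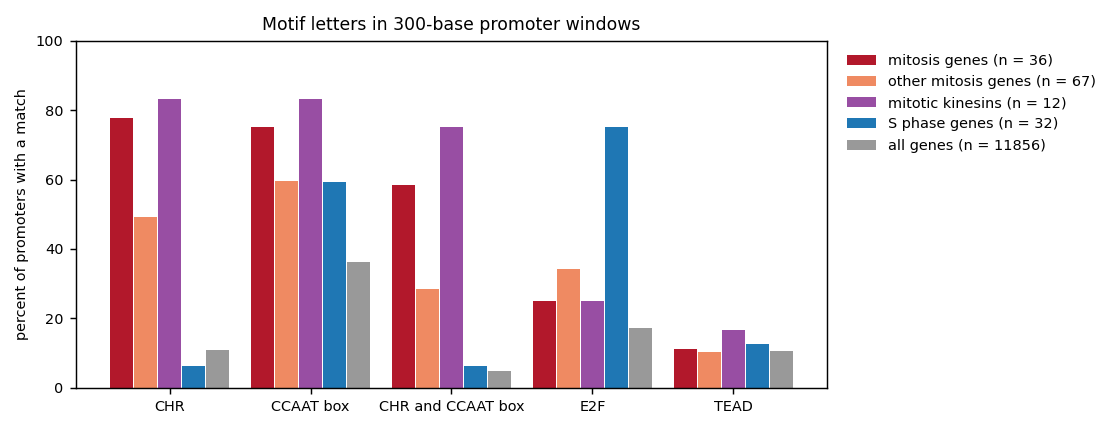
Share of 300-base promoter windows (y axis, percent) holding letters of the CHR, the CCAAT box, both, E2F sites and the TEAD core, for the 36 mitosis genes, 67 other mitosis genes, 12 mitotic kinesins, 32 S phase genes and 11856 genes of the table (bars). The CHR bar stands at 77.8% for the 36 mitosis genes, 49.3% for other mitosis genes, 83.3% for mitotic kinesins and 6.25% for S phase genes, whereas the TEAD bars lie between 10.4% and 16.7%.

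Co-knockdown of YAP and TAZ went with lower expression of a large part of the mitosis genes, by small amounts. Against siControl, 18 of the 43 genes fell (adjusted p of at most 0.05 with edgeR) and none rose, while 8.39% of all 18858 genes fell and 9.97% rose. Among the 10640 genes whose mean reached 100 normalized counts, as it did in 41 of the members, 14.2% fell and 12.5% rose. DESeq2 also called 18 members lower, beside 8.74% lower and 10.6% higher of all genes. The falls of the 18 lay between 15.4% and 25.6%, with standard errors of 0.0638 to 0.109 on the log2 scale. No member passed an absolute log2 fold change of 1 as well, a pair of thresholds that 3.46% of all genes passed. The median log2 fold change over the 43 was -0.24, against -0.0048 over all genes and -0.04 over those 10640, and 41 of the 43 values were negative. In bulk RNA, fewer dividing cells and less RNA of these genes per dividing cell cannot be told apart. In 25 members every siYAP+TAZ library lay below every siControl library, as it did in 18.2% of all genes. In CDC25B alone every co-knockdown library lay above, against 18.2% of all genes in that direction. The count changed with single libraries left out: it was 8 without siYAP+TAZ library 20, 11 without siControl library 17 and 12 without siControl library 27. The share of all genes called in such fits, here and below, was not computed. Whether the drop is particular to these members therefore cannot be told. CCNB1, BUB3, AURKB, CDCA8, NCAPG, ANLN and CDC20 were past the threshold with each library of these groups left out in turn and under every other alternative run. Consecutive library numbers (16 to 20, 21 to 25 and 26 to 30) may mark sets of one experiment each, which the labels do not state. With these sets fitted as a block, CDK1, BUB1, TTK, BIRC5, INCENP and SMC2 were called lower in addition to the 18, making 24, beside 14% lower and 14.6% higher of all genes. Deviations of siControl and siYAP+TAZ libraries correlated over genes at 0.35, 0.24 and 0.62 within the sets and at -0.58 to 0.53 across them. The calls below are those of the fit without a block.

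**Figure D2:**
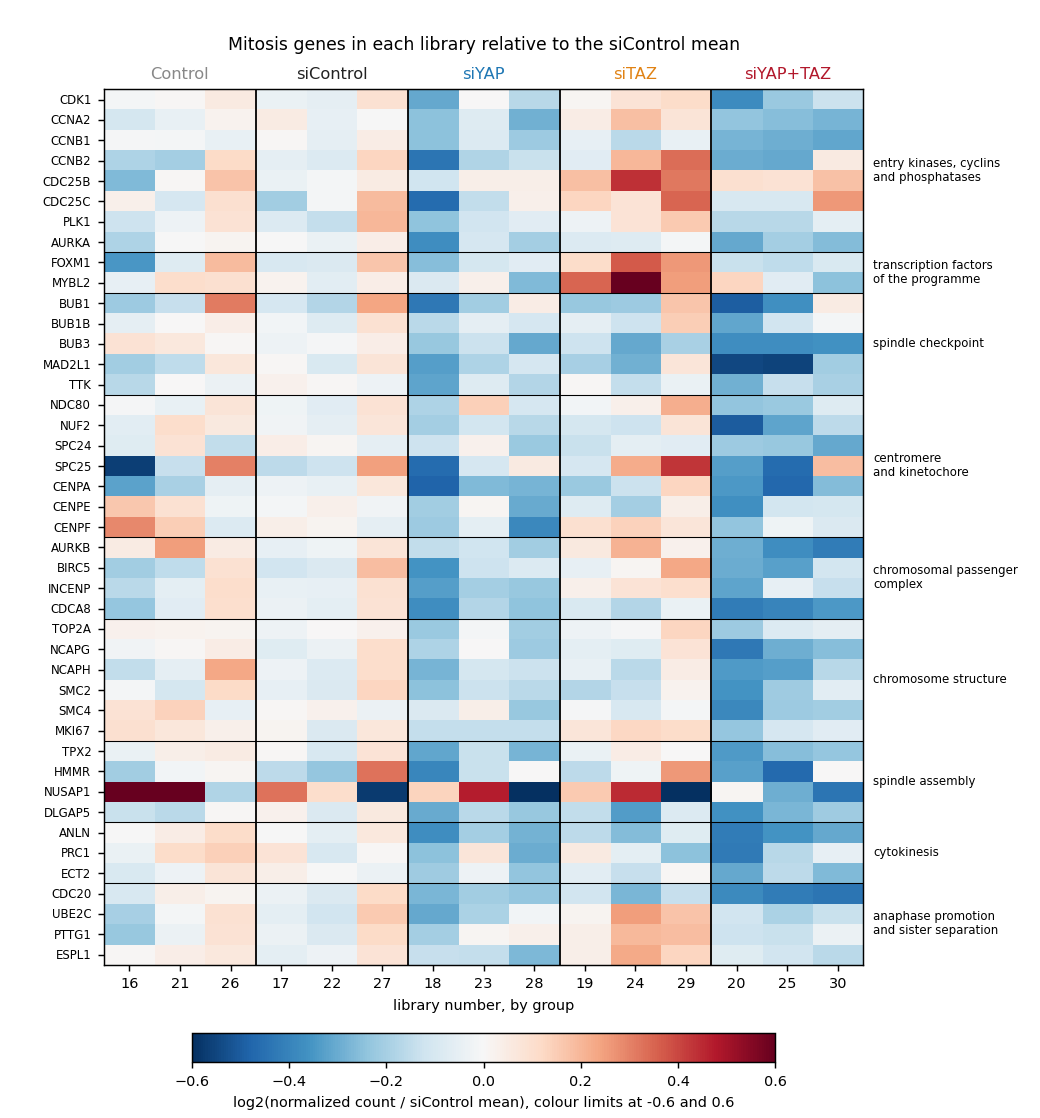
Normalized count of each of the 43 mitosis genes (rows, by role) in each of the 15 libraries (columns, by group), as the log2 ratio to the siControl mean. Colours stop at -0.6 and 0.6, which values of NUSAP1 and MYBL2 reach. The siYAP and siYAP+TAZ blocks are mostly blue. The siTAZ block is mixed, and MYBL2, FOXM1 and CDC25B are among the genes that are red in all 3 siTAZ libraries.

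Of the 8 kinases, cyclins and phosphatases of entry, 3 fell in siYAP+TAZ: CCNB1 (cyclin B1), CCNA2 (cyclin A2) and AURKA, the kinase of centrosome maturation. CCNB1 read 6795, 6521 and 6959 normalized counts in siControl, 5577, 5510.0 and 5442 in siYAP+TAZ, 5689, 6375 and 5811 in siYAP, 6529.8, 6046 and 6546 in siTAZ and 6732, 6698 and 6554 in Control. All co-knockdown libraries lay below all siControl and Control libraries. CCNB1 fell by 18.5% (log2 fold change -0.29, SE 0.0638, adjusted p = 0.00313), and the log2 fold changes of CCNA2 and AURKA were both -0.26. The call of CCNA2 was lost without siControl library 17, and that of AURKA without siControl library 17 or 27 or siYAP+TAZ library 20 or 30, and with Control as the reference. The log2 fold changes of the others were -0.24 for CDK1, the kinase these cyclins activate (adjusted p = 0.0513), -0.17 for CCNB2, -0.13 for the kinase PLK1, 0.04 for CDC25C and 0.12 for CDC25B, phosphatases that remove the inhibitory phosphates from CDK1. CDC25B read 4492, 4579 and 4764 in siControl, 4924, 4899.8 and 5209 in siYAP+TAZ, 4245, 4720.0 and 4732 in siYAP, 5229, 6249 and 5739 in siTAZ and 3834, 4630.4 and 5196 in Control. Its co-knockdown libraries lay above those of siControl and overlapped those of Control (SE 0.0927, adjusted p = 0.425). Leaving out siControl library 17 or siYAP+TAZ library 30 turned the value of CDC25C to -0.05 or -0.09.

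The transcription factors of the late programme, FOXM1 and MYBL2, were not called in the co-knockdown. FOXM1 read 5847, 5886 and 7009 normalized counts in siControl, 5703, 5614 and 5863 in siYAP+TAZ, 5229, 5812 and 5967 in siYAP, 6749, 8056 and 7491 in siTAZ and 4902, 5923 and 7119.7 in Control. The co-knockdown and siControl libraries overlapped (log2 fold change -0.13, SE 0.11, adjusted p = 0.492). MYBL2 read 2453, 2316 and 2487 in siControl, 2646, 2304 and 2037 in siYAP+TAZ, 2274, 2472 and 2009.8 in siYAP, 3081, 3881 and 2874 in siTAZ and 2340.0, 2599.6 and 2588 in Control. The siTAZ libraries were the 3 highest of the 15, while siYAP+TAZ spanned the siControl values (log2 fold change -0.06, SE 0.11, adjusted p = 0.788, and 0.04 without siYAP+TAZ library 30). In GENCODE, 15.9% of the exonic bases of FOXM1 also lie in a gene of the opposite strand, and the sources used here do not say whether counting used the strand.

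In the spindle checkpoint 2 of 5 genes fell. MAD2L1, which encodes the MAD2 inhibitor of CDC20, read 1995, 1863 and 2093 normalized counts in siControl, 1359, 1348 and 1715 in siYAP+TAZ, 1576, 1744 and 1853 in siYAP, 1730.0, 1623 and 2084 in siTAZ and 1719, 1782 and 2077 in Control. All co-knockdown libraries lay below siControl, library 30 being nearer to it than the other two. The fall of 25.6% (log2 fold change -0.43, SE 0.109, adjusted p = 0.00967) was the lowest value of the 43, and it missed the threshold without siYAP+TAZ library 20 or 25. BUB3, which carries checkpoint proteins to the kinetochore, fell by 22.5% (log2 fold change -0.37, SE 0.0664, adjusted p = 0.000727), with siYAP+TAZ libraries at 6335, 6344 and 6381 against 8029.9, 8153 and 8427. BUB1B, the checkpoint kinase-like protein BUBR1, read 1873, 1799 and 2018 in siControl, 1527, 1753 and 1880.3 in siYAP+TAZ, 1693, 1829 and 1769 in siYAP, 1829.8, 1741 and 2098 in siTAZ and 1824, 1898 and 1947 in Control. Its groups overlapped (log2 fold change -0.14, SE 0.0845, adjusted p = 0.289), and 10.2% of its exonic bases are shared with PAK6 on the same strand. The kinases BUB1 and TTK had log2 fold changes of -0.25 and -0.21 (adjusted p = 0.421 and 0.0768), and both were among the genes called with the block.

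Of the 7 centromere and kinetochore genes 3 fell: CENPA, the histone H3 variant that marks the centromere, and NUF2 and SPC24, subunits of the NDC80 complex that binds microtubules. CENPA read 851, 843 and 912 normalized counts in siControl, 685, 626 and 725 in siYAP+TAZ, 622, 722 and 717 in siYAP, 746, 796 and 951 in siTAZ and 695, 760.1 and 838 in Control. The siYAP and siYAP+TAZ libraries all lay below siControl, and overlapped each other and Control. CENPA fell by 21.8% (log2 fold change -0.36, SE 0.1, adjusted p = 0.0177), a call lost without siYAP+TAZ library 20 or 25 or siControl library 27, and with Control as the reference. NUF2 fell by 19.7% (-0.32), a call lost without siYAP+TAZ library 20 or siControl library 27. SPC24 fell by 15.9% (-0.25), a call lost with any of the 6 libraries left out, with Control as the reference and with scaling by library size alone. The other subunits of the same complex, NDC80 and SPC25, had log2 fold changes of -0.18 and -0.17, the latter with an interval of -0.67 to 0.34. CENPE and CENPF, motor and matrix proteins of the outer kinetochore region, were at -0.19 and -0.11. CENPF read 6284, 6204 and 5899 in siControl, 5203, 6011 and 5777 in siYAP+TAZ, 5274, 5887 and 4695 in siYAP, 6559.9, 6752 and 6450.1 in siTAZ and 7477, 6791 and 5789 in Control. Its co-knockdown libraries overlapped those of siControl (SE 0.0922, adjusted p = 0.449).

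The chromosomal passenger complex, which corrects wrong attachments and later acts at the midzone, had 2 of its 4 subunits lower in siYAP+TAZ, CDCA8 (borealin) and the kinase AURKB. CDCA8 read 4130.2, 4057 and 4489 normalized counts in siControl, 3161, 3214 and 3326 in siYAP+TAZ, 3262, 3742 and 3575 in siYAP, 3967, 3744 and 4112 in siTAZ and 3598, 4036 and 4536 in Control. All co-knockdown libraries lay below all Control, siControl and siTAZ libraries. CDCA8 fell by 23.5% (log2 fold change -0.39, SE 0.0816, adjusted p = 0.0027) and AURKB by 22.1% (-0.36, SE 0.0742, adjusted p = 0.00215). BIRC5 (survivin) had a value of -0.24 and the scaffold INCENP of -0.16. INCENP read 3304, 3300.1 and 3630.4 in siControl, 2738, 3293 and 3096 in siYAP+TAZ, 2709, 2963 and 2910.4 in siYAP, 3489, 3614 and 3663 in siTAZ and 3051, 3275 and 3675 in Control. The co-knockdown libraries lay below siControl, library 25 by a small margin (SE 0.0809, adjusted p = 0.179).

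Among 6 genes of chromosome structure, the condensin subunits NCAPG, NCAPH and SMC4 fell, while SMC2, the partner of SMC4, was at -0.21 (adjusted p = 0.112). NCAPG read 3089, 3169.7 and 3498 normalized counts in siControl, 2414, 2653 and 2724 in siYAP+TAZ, 2862, 3262 and 2792 in siYAP, 3119, 3094 and 3446 in siTAZ and 3203, 3271 and 3359 in Control. The co-knockdown libraries were the 3 lowest of the 15. NCAPG fell by 20.1% (log2 fold change -0.32, SE 0.0774, adjusted p = 0.00637), NCAPH by 17.5% (-0.28) and SMC4 by 17.0% (-0.27). The calls of NCAPH and SMC4 were lost without siControl library 17 or 22 or siYAP+TAZ library 20, that of NCAPH also without siControl library 27 or siYAP+TAZ library 25, both when counts were scaled by library size alone, and that of NCAPH with DESeq2 size factors as well. Of the exonic bases of NCAPG 33.7%, and of SMC4 22.0%, also lie in a gene of the opposite strand. TOP2A, the topoisomerase that untangles sister chromatids, read 11316, 11574 and 11758 in siControl, 9931, 10921 and 11126 in siYAP+TAZ, 9889, 11468 and 9989 in siYAP, 11326, 11488 and 12640.5 in siTAZ and 11747, 11728 and 11689 in Control. Its co-knockdown libraries lay below those of siControl (log2 fold change -0.12, SE 0.0726, adjusted p = 0.311). MKI67, the Ki-67 coat protein of mitotic chromosomes and a common marker of proliferation, was at -0.13 (95% interval -0.27 to 0.01, adjusted p = 0.192).

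Of the 4 spindle assembly genes, TPX2, the activator of AURKA on the spindle, fell by 17.3% (log2 fold change -0.27, adjusted p = 0.00946) and DLGAP5, which stabilises kinetochore fibres, by 17.8% (-0.28, SE 0.0779, adjusted p = 0.0157). DLGAP5 read 3230.3, 2988 and 3307 normalized counts in siControl, 2465, 2626 and 2741 in siYAP+TAZ, 2572, 2836 and 2710.2 in siYAP, 2867, 2519.7 and 3003 in siTAZ and 2897, 2834 and 3195 in Control. Co-knockdown and siYAP libraries lay below those of siControl, and its call was lost without siYAP+TAZ library 20 or siControl library 17 or 27, and with Control as the reference. That of TPX2 was lost without siYAP+TAZ library 20. HMMR, a hyaluronan receptor that also binds spindle microtubules, read 262, 248.7 and 366 in siControl, 233, 212 and 293 in siYAP+TAZ, 223, 266 and 293 in siYAP, 262, 287 and 349.6 in siTAZ and 253, 289 and 295 in Control. These groups overlapped (log2 fold change -0.24, SE 0.161, adjusted p = 0.345). NUSAP1, which bundles microtubules near chromatin, was listed at 11.3 to 47.0 normalized counts, and its log2 fold change of -0.25 had an interval of -1.08 to 0.57.

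In cytokinesis, ANLN (anillin, the scaffold of the contractile ring) and ECT2, the exchange factor that activates RhoA there, fell. ANLN read 10767, 10368 and 11268 normalized counts in siControl, 8082, 8418 and 8737 in siYAP+TAZ, 8353, 9364 and 8886 in siYAP, 9694, 9006 and 10284 in siTAZ and 10782, 11124 and 11653 in Control. All knockdown libraries, siTAZ included, lay below all siControl and Control libraries. ANLN fell by 22.1% (log2 fold change -0.36, SE 0.0703, adjusted p = 0.00142) and ECT2 by 15.4% (-0.24, adjusted p = 0.0267). The call of ECT2 was lost without siControl library 17 or 22 or siYAP+TAZ library 20 or 30, and with scaling by library size. PRC1, which bundles midzone microtubules, read 109.7, 97.1 and 104 in siControl, 77.3, 92.4 and 100 in siYAP+TAZ, 87.3, 109 and 84.2 in siYAP, 108, 99.6 and 87.4 in siTAZ and 101, 112 and 114 in Control. These ranges overlapped (log2 fold change -0.20, SE 0.155, adjusted p = 0.428). PRC1 and NUSAP1 had the fewest normalized counts per kilobase of exon of the 43, at 18.8 and 6.2 in siControl against 5038 for CDC20, and 61.9% and 86.8% of their exonic bases also lie in other genes, mostly on the same strand. The part of this sharing in their low counts was not tested.

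Among the genes of anaphase, CDC20 had the smallest adjusted p of the 43. CDC20, the activator of the anaphase-promoting complex, read 9898, 9539.7 and 10968 normalized counts in siControl, 7768, 7585 and 7471 in siYAP+TAZ, 8380.2, 8758 and 8637 in siYAP, 9352, 8389.9 and 9216 in siTAZ and 9473, 10375 and 10259 in Control. The co-knockdown libraries were the 3 lowest, and all single knockdown libraries lay below all siControl and Control libraries. CDC20 fell by 24.9% in siYAP+TAZ (log2 fold change -0.41, SE 0.0698, adjusted p = 0.000421). The E2 enzyme UBE2C, the separase gene ESPL1 and the securin gene PTTG1 had log2 fold changes of -0.15, -0.12 and -0.10. PTTG1 read 2760.0, 2666 and 3069 in siControl, 2597, 2581 and 2765 in siYAP+TAZ, 2458, 2854 and 2889 in siYAP, 2898, 3237 and 3216 in siTAZ and 2415, 2762 and 3011 in Control. Its groups overlapped (SE 0.0877, adjusted p = 0.51).

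**Figure D3:**
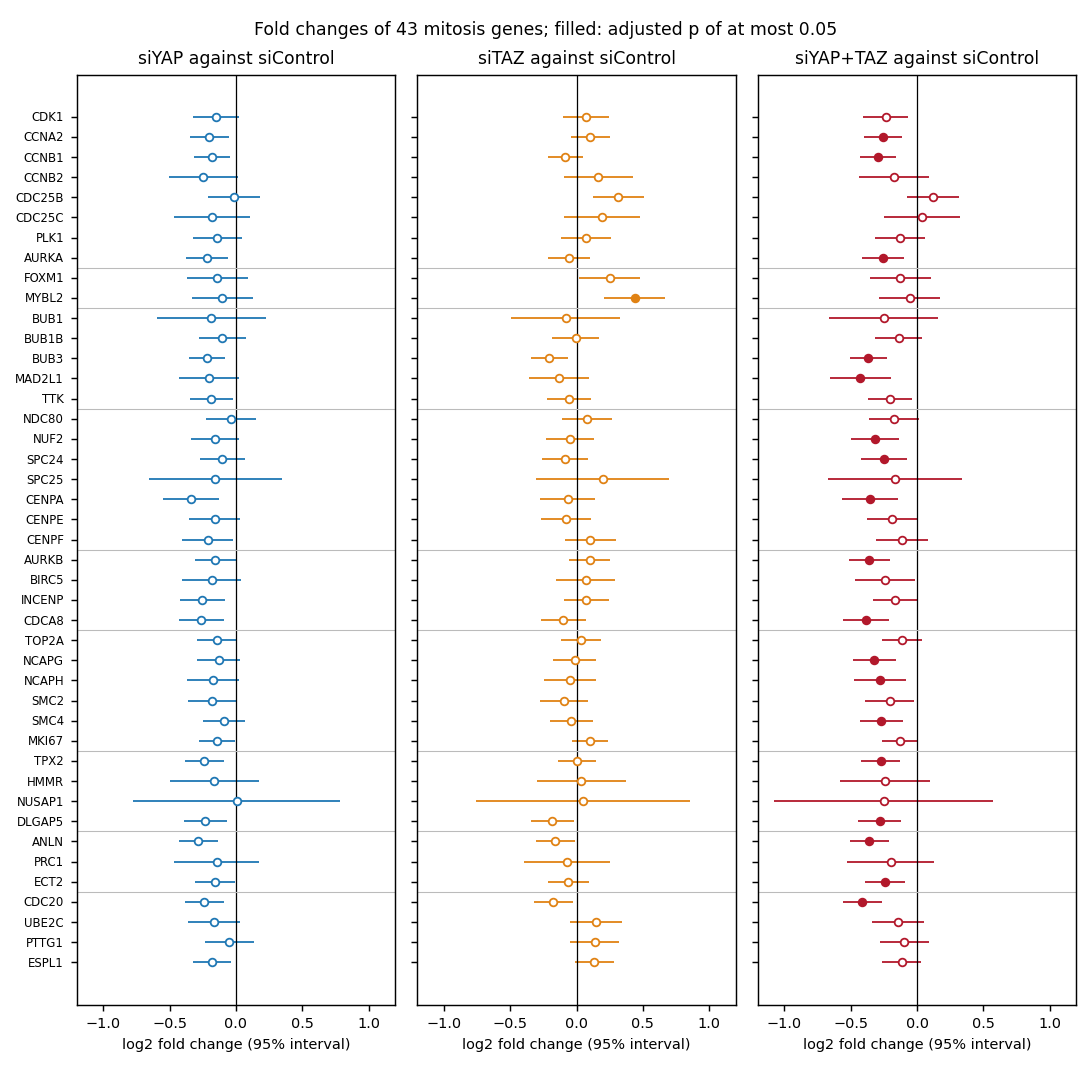
Log2 fold change (x axis) of each mitosis gene (rows, grouped by role as in the heat map) with its 95% interval, for siYAP, siTAZ and siYAP+TAZ against siControl; filled points had an adjusted p of at most 0.05. In siYAP+TAZ 18 points are filled and lie left of 0, in siYAP none is filled although 42 of 43 lie left of 0, and in siTAZ only MYBL2 is filled, at 0.44.

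Knockdown of YAP alone gave values of the same sign, none of which passed the test in the fit without a block. Of the 43 genes 42 had a negative log2 fold change against siControl and the median was -0.17, while 0 were called with edgeR (0.456% of all genes were called lower and 0.477% higher). At an unadjusted p below 0.05 the number was 17, beside 11.9% of all genes, and DESeq2 called 4 lower, beside 1.03% of all genes lower and 1.09% higher. The study describes the sequencing data as coming from independent experiments in a table legend, not in its sequencing methods, and does not say which libraries belong to one experiment. With the sets of consecutive numbers fitted as a block, 11 members were lower in siYAP (CCNA2, CCNB2, AURKA, BUB3, CENPA, INCENP, CDCA8, TPX2, DLGAP5, ANLN and CDC20) and none higher, beside 3.02% and 3.08% of all genes. The deviations of siControl and siYAP libraries in the same set correlated over genes at 0.40, 0.38 and 0.63. Across sets, siControl 22 with siYAP 18 and siControl 17 with siYAP 23 stood at 0.39 and 0.27, and the other 4 pairs at -0.52 to -0.42, so that the first of these sets was not told from the second by its correlation. The count for siYAP therefore depends on whether these numbers mark the sets. In 21 members every siYAP library lay below every siControl library, against 9.86% of all genes. The lowest values were -0.34 for CENPA (adjusted p = 0.125) and -0.28 for ANLN (adjusted p = 0.0602). The highest were 0.01 for the sparsely counted NUSAP1 and -0.01 for CDC25B. Among the 41 members other than PRC1 and NUSAP1, no 95% interval reached a log2 of 1 in size, the lowest bound being -0.66 and the highest 0.35, both for SPC25. The median level over the 43, as a percentage of the siControl mean, was 84.3 in siYAP library 18, 92.9 in library 23 and 86.5 in library 28, and library 23 was the one with YAP1 at 64.0%. The part of the remaining YAP1 in this difference was not tested.

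Knockdown of TAZ alone gave no common direction. The median log2 fold change was 0.004, 21 values were negative and 22 positive, and the library medians were 96.9%, 98.3% and 105.7% of siControl. MYBL2 rose by 35.6% (log2 fold change 0.44, SE 0.109, adjusted p = 0.046), the only member called, where 1.34% of all genes were called higher and 0.695% lower. That call was lost without siControl library 17, 22 or 27, without siTAZ library 24, with Control as the reference and with a fit of the compared groups only. DESeq2 called 3 members, MYBL2 and CDC25B higher and BUB3 lower, beside 2.63% of all genes higher and 1.62% lower. With the sets as a block, MYBL2, FOXM1 and CDC25B were called higher and BUB3 lower, beside 6.03% and 4.26% of all genes. CDC25B, at 0.32 (adjusted p = 0.0847), and FOXM1, at 0.25 (adjusted p = 0.265), were the next highest. BUB3 at -0.20, DLGAP5 at -0.18, CDC20 at -0.17 and ANLN at -0.16 were the lowest, with intervals below 0 and adjusted p of 0.117 to 0.262. In 4 members every siTAZ library lay below siControl and in 4 above, against 10.2% and 10.7% of all genes.

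The single knockdowns were also set against each other, a comparison chosen after the values had been seen. All 43 members had lower fitted values in siYAP than in siTAZ, with a median log2 difference of -0.16, and 2 passed the test, MYBL2 at -0.54 and ESPL1 at -0.31, where 0.472% of all genes were called lower and 0.17% higher. The count was 0 without siYAP library 18 or 28 or without siTAZ library 24 or 29, and 5 without siTAZ library 19. It was also 0 with a fit of the compared groups only and with scaling by library size alone. DESeq2 called 6 lower, beside 1.21% of all genes lower and 0.663% higher, and the fit with the sets as a block 18, beside 4.71% of all genes lower and 2.6% higher. Within the sets, 42, 23 and 43 of the 43 members were lower in siYAP, with median log2 differences of -0.21, -0.0026 and -0.25, so that the second set showed no common direction. In 20 members every siYAP library lay below every siTAZ library, against 9.38% of all genes.

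The co-knockdown was compared with each single knockdown as well. Against siTAZ, 9 members fell (CDK1, CCNA2, MYBL2, AURKB, CDCA8, NCAPG, MKI67, TPX2 and ESPL1) and none rose, where 2.38% of all genes fell and 3.06% rose, and the median log2 fold change was -0.23 with all 43 negative. AURKB fell by 27.4% (log2 fold change -0.46, SE 0.0743, adjusted p = 0.00149) and MYBL2 by 29.0% (-0.49, SE 0.11, adjusted p = 0.0129). The count was 3 without siYAP+TAZ library 20, 2 without library 25, and 4 and 3 without siTAZ libraries 24 and 29, and it was 3 with a fit of the compared groups only, where 7 of the 9, MYBL2 among them, were not called. The calls of AURKB and CCNA2 were kept in all of these. With the sets as a block it was 30, beside 7.45% of all genes. In 30 members every siYAP+TAZ library lay below every siTAZ library, against 11.8% of all genes. Against siYAP no member was called (1.7% of all genes were called lower and 3.43% higher), and 5 had an unadjusted p below 0.05, beside 19.2% of all genes. DESeq2 called 0, beside 2.56% of all genes lower and 4.3% higher. The fit with the sets as a block called 3 lower (MAD2L1, AURKB and NCAPG, beside 6.03% of all genes). The median was -0.05 with values from -0.26 for NUSAP1 to 0.22 for CDC25C. These comparisons share the siYAP+TAZ libraries with the comparison against siControl.

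The interaction of siYAP and siTAZ sets the co-knockdown against the sum of the single effects. WWTR1 was at 14.1% to 45.8% of the siControl mean in siTAZ and at 62.1% to 71.0% in siYAP+TAZ. YAP1 was at 17.6% to 64.0% in siYAP and at 41.5% to 51.8% in siYAP+TAZ. The term therefore does not measure additivity at equal depletion. It was called in no member with edgeR or DESeq2. Over all genes edgeR called it in 0.0106%, while DESeq2 called 13 genes higher and 8 lower. Its median over the 43 was -0.06, and 2 members, MYBL2 at -0.39 and AURKB at -0.30, had an unadjusted p below 0.05, beside 5.85% of all genes. The median standard error was 0.119 for this term, against 0.0845 for the co-knockdown, so that a missed threshold does not show that the effects added up. Between siControl and Control no member was called with either tool or had an unadjusted p below 0.05, 0% of all genes were called and 2.11% had such a p, and the median was 0.005.

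**Figure D4:**
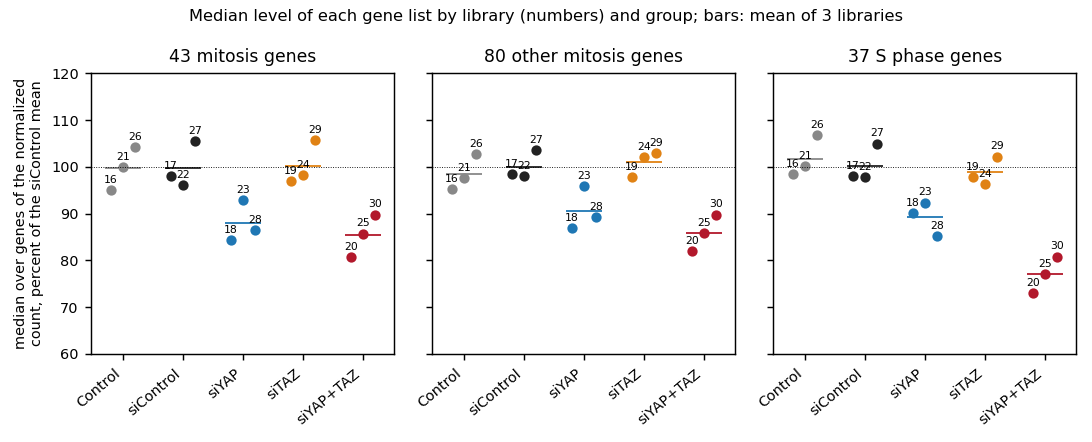
Median over genes of the normalized count as a percentage of the siControl mean (y axis) in each library (points, with library numbers) by group, for the 43 mitosis genes, 80 other mitosis genes and 37 S phase genes; horizontal bars are means of the 3 libraries. For the 43 genes the siYAP+TAZ libraries stand at 80.7, 85.7 and 89.8 and no Control, siControl or siTAZ library is below 95.02.

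Libraries within a group differed. The median over the 43 genes was 80.7% of the siControl mean in siYAP+TAZ library 20, 85.7% in library 25 and 89.8% in library 30, and library 20 held the lowest of the 15 values for 18 members. The Control medians were 95.02%, 99.9% and 104.2% and those of siControl 98.0%, 96.0% and 105.5%. Libraries 26, 27, 29 and 30 had the highest median of their groups, so that the third set was highest in 4 of the 5 groups. When libraries with neighbouring numbers were set against each other (17 and 20, 22 and 25, 27 and 30), 40, 42 and 40 of the 43 members were lower in siYAP+TAZ, beside 50.4%, 51.5% and 49.7% of all genes. For siYAP the numbers were 43, 29 and 43 and for siTAZ 25, 21 and 20.

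Other cell cycle genes were listed by name for comparison. Of 80 other mitosis genes 27 fell in siYAP+TAZ against siControl and none rose, with a median of -0.22 and values from -0.74 for CDC25A, the phosphatase that acts from G1 onward, to 0.18 for NUMA1, a protein of the spindle pole. Of 12 mitotic kinesins 5 fell, with a median of -0.22 and KIF23, the motor of the central spindle, lowest at -0.45. Among 37 genes of DNA replication and S phase 27 fell, with a median of -0.38 and MCM10, which helps to start replication forks, lowest at -0.53. In siYAP the S phase list had 1 gene called lower with edgeR, 3 with DESeq2 and a median of -0.15. In siTAZ edgeR called none and DESeq2 1 higher, with a median of -0.02. Of 8 CDK inhibitors and pocket proteins, CDKN1A (p21) rose (0.97, SE 0.147, adjusted p = 0.000362) and RBL1 (p107) fell (-0.29, adjusted p = 0.0341). CDKN1A was at 0.53 in siTAZ (adjusted p = 0.0777) and at 0.19 in siYAP (adjusted p = 0.682). Of these 8 genes DESeq2 called 2 higher and 1 lower in siYAP+TAZ, and 1 higher in siTAZ.

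**Figure D5:**
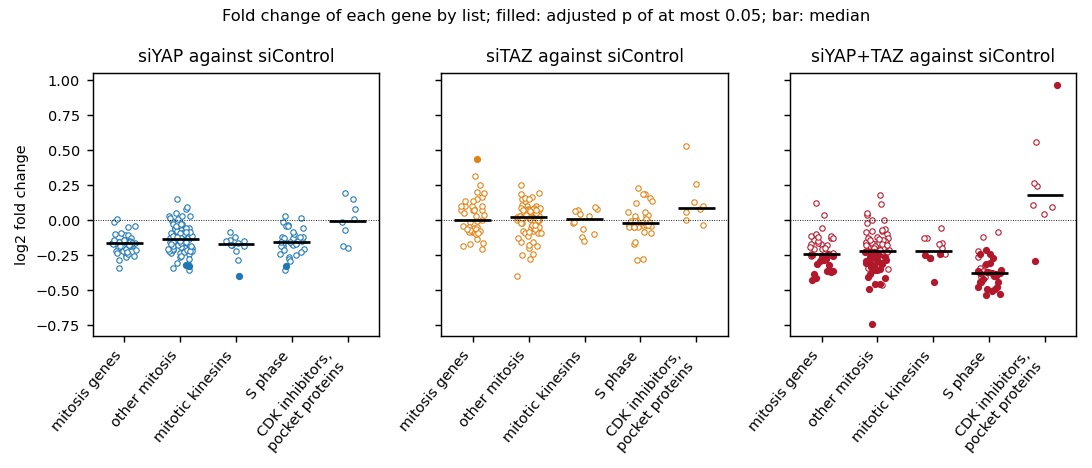
Log2 fold change (y axis) of each gene (points; filled at an adjusted p of at most 0.05) against siControl in siYAP, siTAZ and siYAP+TAZ, by gene list (x axis); black bars are medians. In siYAP+TAZ the bars stand at -0.24 for the 43 mitosis genes, -0.22 for the other mitosis genes and for mitotic kinesins and -0.38 for S phase genes, and CDKN1A is the highest point at 0.97.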

How the data were processed

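PolyA-selected RNA of 15 libraries was sequenced, and groups were taken from the sample titles. The authors removed adapters with cutadapt, mapped reads to GRCh38 using STAR 2.4.2a, and deposited raw counts per gene. The deposited normalized signal (counts divided by DESeq2 size factors) and the deposited rlog values on the log2 scale were not tested, and 70 deposited columns of the authors' own comparisons were not used. Normalized counts in the text were computed here from the raw counts. None of the 18858 genes stayed below 5 reads in every library. After TMM scaling, edgeR 4.0.16 (R 4.3.3) was fitted (quasi-likelihood, robust, a coefficient per group, all 15 libraries, no block), with Benjamini-Hochberg adjustment over all genes. A call means that the adjusted p did not exceed 0.05, and, where stated, that the log2 fold change was also 1 or more in size. DESeq2 1.42.0, other scalings, a filter of 10 reads in 3 libraries, Control as reference, the compared groups only and leaving out each library were alternatives. Scripts were tested on simulated data. Total counts and the 3 libraries per group limit the precision. The tests weigh a group difference against the spread between libraries, whose replicate pairs all differed by more than sampling noise. Without a block, this spread includes any differences between the possible sets. The members and the other gene lists were chosen with earlier results of these data known. All 43 members are named, and library values are given for the lowest and highest fold change of each of 9 role groups. BUB3 and AURKB values were added after they had been seen. Exon overlaps come from a later GENCODE release than that of the counting, and promoter letters from RefSeq.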

Additional observations from a re-analysis of the deposited data

How the results depend on the processing

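Of 559 values of the 43 log2 fold changes in siYAP+TAZ against siControl under the alternatives, 502 kept their sign and side of the threshold, 43 lost the call, 11 gained it and 3 turned in sign, all 3 with a library left out: CDC25C at -0.05 without siControl library 17 and -0.09 without siYAP+TAZ library 30, and MYBL2 at 0.04 without siYAP+TAZ library 30. With each library left out, CDC25C ranged from -0.0865 to 0.14 and MYBL2 from -0.15 to 0.0399. No scaling moved the median of all genes by 0.1 or more, and the member median stayed between -0.24 and -0.20 with 41 negative. With a library left out, the number of called members ranged from 8 to 16 in siYAP+TAZ against siControl (18), from 0 to 2 in siTAZ against siControl (1), from 2 to 9 in siYAP+TAZ against siTAZ (9) and from 0 to 5 in siYAP against siTAZ (2). The share of all genes called with a library left out was not computed. DESeq2 gave 4 in siYAP against siControl, 3 in siTAZ against siControl and 6 in siYAP against siTAZ. Control as the reference gave 2 for siYAP, scaling by library size gave 2 for siTAZ and 0 for siYAP against siTAZ, and fitting only the compared groups gave 0 for siTAZ, 3 for siYAP+TAZ against siTAZ and 0 for siYAP against siTAZ. The cause was not tested. The groups share no replicate numbers in the labels, so the reported fit has no block. Taking consecutive library numbers as a replicate block gave, against siControl, 24 called members for the co-knockdown, 11 for siYAP and 4 for siTAZ, and further 3 in siYAP+TAZ against siYAP, 30 in siYAP+TAZ against siTAZ and 18 in siYAP against siTAZ. Over 10640 genes, deviations of libraries in such a block correlated at 0.24 to 0.72 where siTAZ library 24 was not in the pair and at -0.07 to 0.03 where it was, and those of libraries in different blocks at -0.66 to 0.53, and 10 of 15 libraries matched best within their own block. At this depth the precision is set by the spread between 3 libraries, with a median SE of 0.0845 for the co-knockdown.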
